A study of Mus musculus with 4 samples.

Results

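The 39 protein-coding Hox genes of the mouse were followed in H3K27ac peak lists of primary chondrocyte cultures. They were chosen by symbol, as every gene named Hox with a cluster letter from a to d and a number, out of 21887 protein-coding genes. Each of the 4 clusters was searched from its outermost gene to its outermost gene, with 50 kb added on each side. This took in 42 of the 13130 peaks of the Cre list and 54 of the 12873 peaks of the GFP list.

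Chondrocytes of C57Bl/6 mice were cultured as micromasses, dense spots of cells that lay down cartilage matrix. One culture, labelled hdac3-knockout, received an adenovirus with Cre recombinase, and the other, labelled wild-type, a GFP control adenovirus, so both carried a virus. Values marked with Cre and with GFP below are those of these cultures' libraries. HDAC3 is a histone deacetylase, and H3K27ac, the acetyl mark on lysine 27 of histone H3, is found at active promoters and enhancers. Each culture gave 1 H3K27ac library, so every difference below is a difference between 2 libraries, with no replicate check and no test. The share of cells in which Cre had acted, the age of the animals and the skeletal site of the cells are not given in the labels. The 2 input libraries were not analysed here.

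Hox genes encode homeodomain transcription factors that give cells along the body axis and the limb their position. Mammals carry them in 4 clusters, Hoxa to Hoxd, and genes at the same place in different clusters form paralog groups numbered from 1 to 13. Low-numbered groups act towards the head, and high-numbered groups towards the tail and in the outer parts of the limbs. In the skeleton the group a cell expresses bears on whether a vertebra carries ribs and which limb segment forms. All genes of a cluster are transcribed in the same direction.

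The cultures carried the mark at chondrocyte genes. A peak within 1 kb of an annotated gene end is called a boundary peak here. Of 12 chondrocyte marker genes, 9 had one in both lists, beside 9.26% of all protein-coding genes. All 12 had a peak within 10 kb in each list, where 26.0% of all protein-coding genes did. Col2a1 (type II collagen), Acan (aggrecan) and Sox9 were among the 9. Of the fibroblast markers, Dcn had boundary peaks in both lists and Col1a2 with GFP alone, while the other 5 of 7 had none. The markers of osteoblasts (6 genes), blood (5), endothelium (3), muscle (3) and neural cells (3) had no boundary peak. Of all protein-coding genes, 13.5% had one with Cre and 14.0% with GFP, so its absence from such short lists says little. Within 10 kb, however, 2 of the 7 fibroblast markers had a peak with Cre and 3 with GFP, Col3a1 in both lists. So did 1 osteoblast marker, Sp7, in each list and 1 blood marker, Cd68, with GFP alone. The endothelial, muscle and neural markers had none within 10 kb. The most common expected background was 1.01 fragments with Cre and 0.949 with GFP, a ratio of 1.06, and the expected value reached 2.34 fragments with Cre and 1.86 with GFP at single Hox summits. In each whole list the median summit held 12 fragments, with a range of 7 to 63 with Cre and 7 to 58 with GFP.

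The peaks fell into the Hoxa and Hoxc clusters, and the Hoxb and Hoxd clusters had none in either library. The Hoxa window (chromosome 6, 52105367 to 52310880) held 24 Cre peaks covering 7099 bp and 27 GFP peaks covering 9314 bp. The Hoxc window (chromosome 15, 102871131 to 103086856) held 18 Cre peaks covering 5980 bp and 27 GFP peaks covering 7970 bp. All of these lay between the outermost genes and none in the 50 kb flanks. The window of Hoxb (chromosome 11, 96144316 to 96418254) and that of Hoxd (chromosome 2, 74618225 to 74815142) were empty in both lists.

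**Figure D1:**
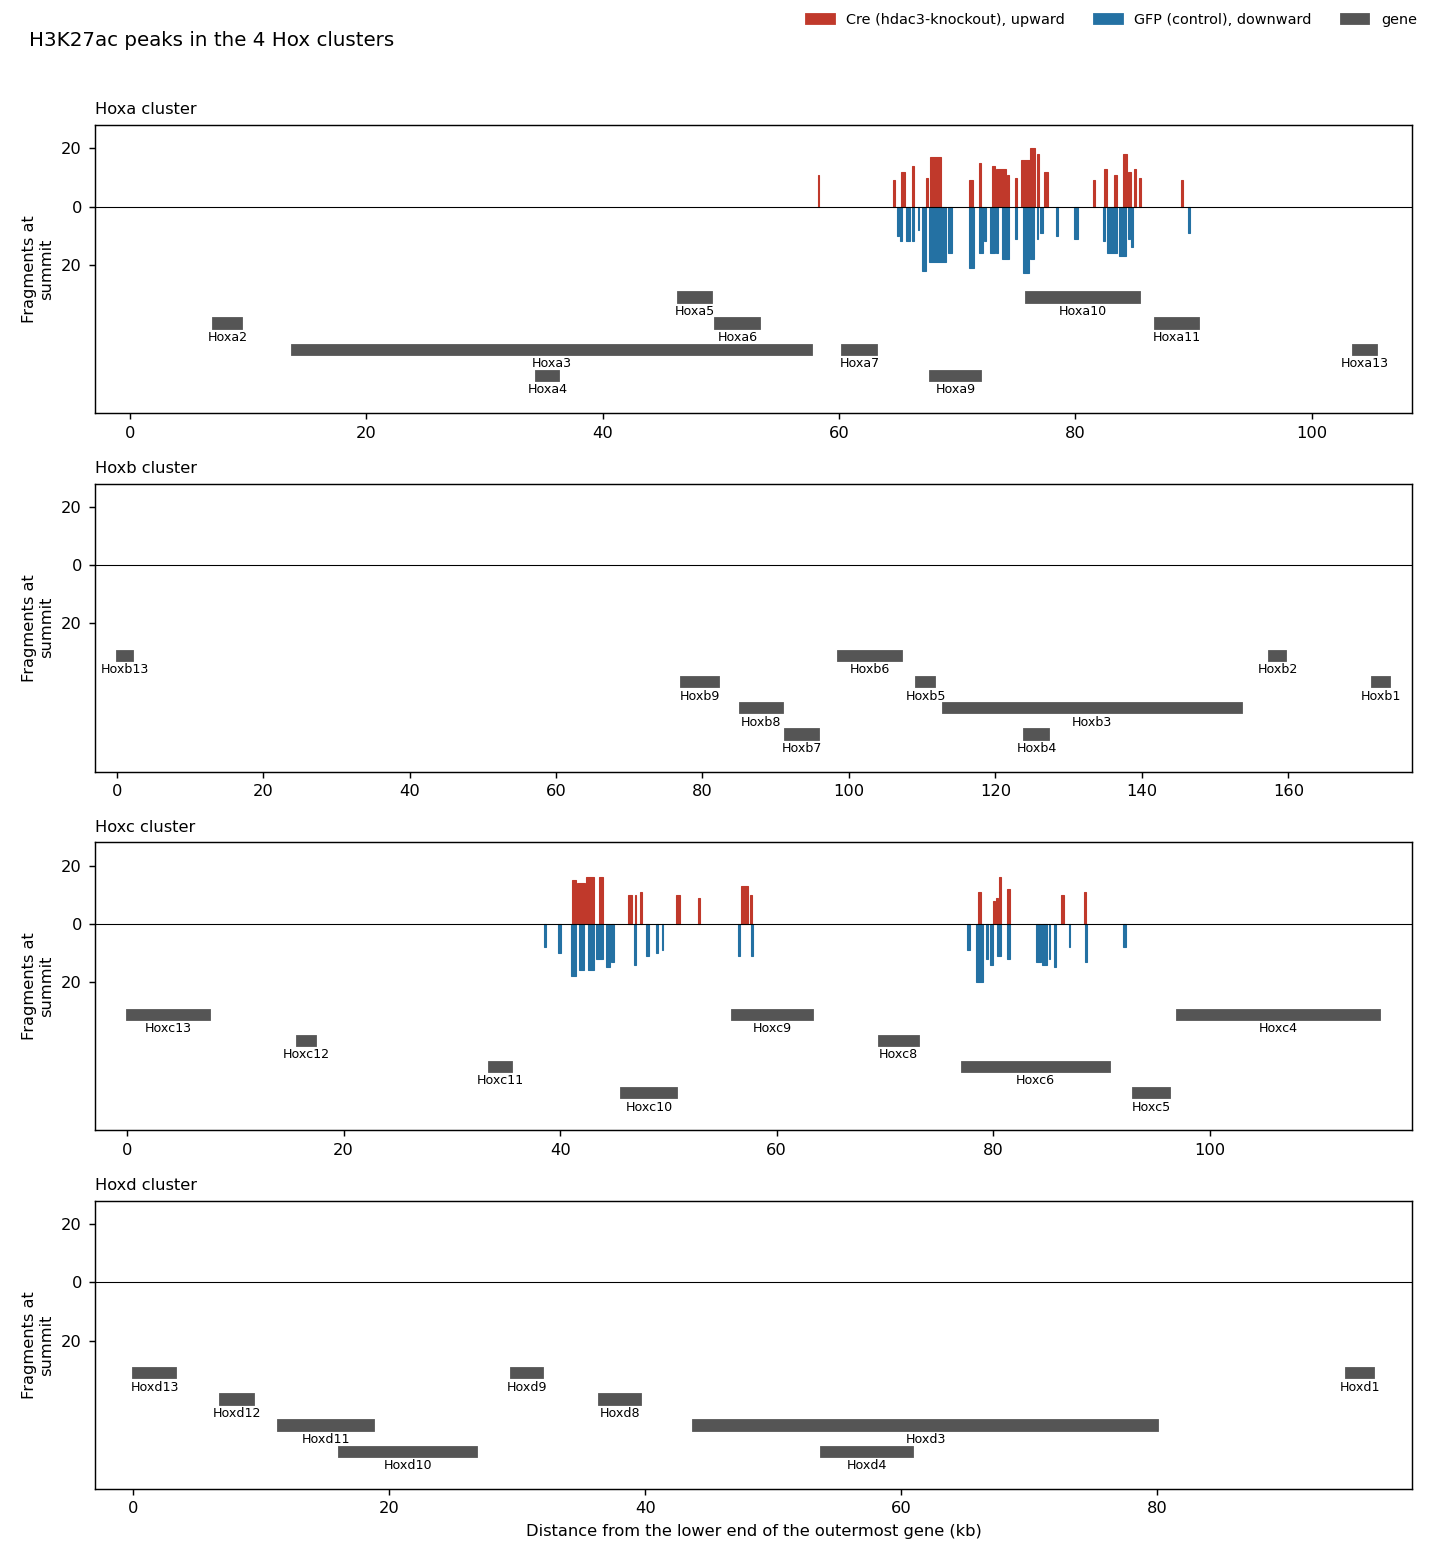
Peaks of the 4 Hox clusters drawn to scale, with distance from the lower end of the outermost gene in kb on the x axis and the number of fragments at each peak's summit on the y axis, the Cre library upward and the GFP library downward. Grey boxes are the genes reported here. The marked stretches lie over Hoxa9 and Hoxa10, around Hoxc10 and Hoxc9 and inside Hoxc6, and the Hoxb and Hoxd panels hold no peak.

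Within the marked clusters the peaks belonged almost wholly to the middle of the paralog series. Each peak was given once, to the member with the gene end nearest to its summit. Counted over all clusters, marked or not, the 15 genes of groups 6 to 10 received 40 of the 42 Cre peaks and 50 of the 54 GFP peaks. These peaks covered 12785 bp with Cre and 16574 bp with GFP. The 15 genes of groups 1 to 5 received 1 Cre peak and 1 GFP peak, of 147 and 199 bp. The 9 genes of groups 11 to 13 received 1 Cre peak of 147 bp and 3 GFP peaks covering 511 bp. Group 10 stood first, with 22 Cre peaks over 6965 bp and 23 GFP peaks over 8107 bp, all at Hoxa10 and Hoxc10. Group 9 followed, with 9 Cre peaks over 3668 bp and 13 GFP peaks over 4623 bp, and then group 6, with 7 Cre peaks over 1672 bp and 12 GFP peaks over 3542 bp. Groups 2, 4, 8, 12 and 13 received no peak in either library.

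**Figure D2:**
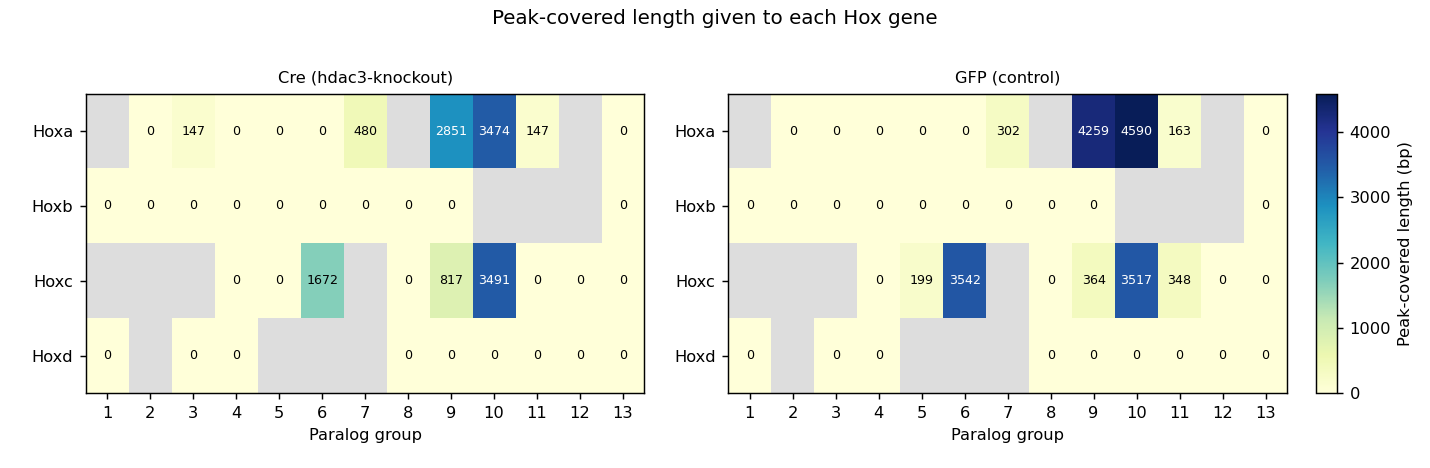
Peak-covered length in bp given to each Hox gene, by cluster (rows) and paralog group (columns), in the Cre library (left) and the GFP library (right), with each peak counted once. Grey squares are paralogs that the cluster lacks or that are not reported here. The filled squares are the same in both libraries except Hoxa3, marked in the Cre library, and Hoxc5 and Hoxc11, marked in the GFP library.

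At gene ends the Hox genes as a set were close to the whole genome. A boundary peak was present at 5 of 39 members in the Cre list (12.8%), against 13.5% of all protein-coding genes, and at 7 in the GFP list (17.9%), against 14.0%. It was present in both lists at 4 members, Hoxa9, Hoxa10, Hoxc9 and Hoxc10, against 9.26% of all genes. Hoxa3 had one in the Cre list alone, where 4.28% of all genes did, and Hoxa11, Hoxc5 and Hoxc6 had one in the GFP list alone, where 4.77% did. These counts are near the background and are not a result about the set. They join marked and empty clusters. In Hoxa 3 of 11 genes had a boundary peak in each list (27.3%). In Hoxc 2 of 9 had one with Cre (22.2%) and 4 of 9 with GFP (44.4%), while no Hoxb or Hoxd gene had one. The counts over all 39 members moved with the width of the boundary. Within 500 bp of a gene end they were 4 with Cre and 2 with GFP, and within 2500 bp they were 8 in each list.

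Hoxa10 had the most peaks of any member in both libraries. Its paralog group suppresses rib formation in the lumbar spine of the mouse. The gene (chromosome 6, 52231197 to 52240854) was nearest to 13 peaks in each library, covering 3474 bp with Cre and 4590 bp with GFP. Its highest Cre peak (52231558 to 52231924) held 20 fragments with a fold enrichment of 9.76, a value from the authors' peak caller that ranks a peak within its own list, and 4.46% of Cre peaks had a fold as high. An exact Poisson 95% interval for 20 fragments runs from 12.2 to 30.9, for counting error only. The highest GFP peak (52230896 to 52231468) held 23 fragments with fold 11.5, reached by 2.53% of GFP peaks. The GFP peak spanned the lower end of the gene, its 3′ end on the minus strand, where the overlapping Cre peak held 16 fragments, and the Cre peak lay just inside the gene, where the overlapping GFP peak held 18.

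The upper, 5′ end of Hoxa10 was marked differently in the libraries. A Cre peak of 200 bp (52240742 to 52240941) with 10 fragments and fold 5.48 covered 137 bases of the annotated promoter there, while the nearest GFP peak ended 565 bp short of it. A further annotated Hoxa10 promoter (52234890 to 52235189) lay inside the gene and met no peak, and it was 1664 bp from the nearest Cre peak and 55 bp from the nearest GFP peak. The Cre peak of 156 bp next to that of 200 bp (52240305 to 52240460, 13 fragments) overlapped no GFP peak either, and the nearest lay 64 bp away. Inside the gene the GFP library had peaks at 52233758 to 52233908 (10 fragments) and 52235244 to 52235543 (11 fragments) where the Cre library had none. These peaks held 10 to 13 fragments, near the median summit of 12 in either list, and what a list does not call may sit just below its threshold.

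Hoxa9, which acts in the thoracic skeleton and the limb, adjoined it. The gene (chromosome 6, 52223097 to 52227370) was nearest to 7 Cre peaks over 2851 bp and 11 GFP peaks over 4259 bp. The longest Hox peak of each library lay at its lower end. That of the Cre library (52223025 to 52223948) was 924 bp long with 17 fragments and fold 8.84, and that of the GFP library (52222983 to 52224444) was 1462 bp long with 19 fragments and fold 10.3. A neighbouring pair of overlapping peaks held 10 fragments in the Cre library (52222684 to 52222907) and 22 in the GFP library (52222418 to 52222758), and another pair inside the gene held 9 (52226363 to 52226656) and 21 (52226338 to 52226739). The GFP summit was the higher in both pairs. The annotated 5′ end of Hoxa9 carried a peak in both libraries, with 15 fragments in the Cre library (52227198 to 52227394) and 16 in the GFP library (52227187 to 52227528).

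The promoter sequences of Hoxa9 and Hoxa10 are shown because they are the 2 of 24 Hox promoters in RefSeq (GRCm38.p6, whose coordinates are those of mm10) that a peak touched, beside those of Hoxd9 and Hoxd10, their unmarked paralogs. The share of all RefSeq promoters that a peak touched is not given here, so 2 of 24 is not a result about the set. The table held promoters for 22 of the 39 members. For the Hoxc cluster it held that of Hoxc4 alone, so promoters of the marked genes Hoxc6, Hoxc9 and Hoxc10 could not be scored. Each runs 5′ to 3′ from 250 bases before to 50 bases after the annotated start, and capitals mark bases inside a peak of either library.
Hoxa9, chr6:52227321-52227620, minus strand: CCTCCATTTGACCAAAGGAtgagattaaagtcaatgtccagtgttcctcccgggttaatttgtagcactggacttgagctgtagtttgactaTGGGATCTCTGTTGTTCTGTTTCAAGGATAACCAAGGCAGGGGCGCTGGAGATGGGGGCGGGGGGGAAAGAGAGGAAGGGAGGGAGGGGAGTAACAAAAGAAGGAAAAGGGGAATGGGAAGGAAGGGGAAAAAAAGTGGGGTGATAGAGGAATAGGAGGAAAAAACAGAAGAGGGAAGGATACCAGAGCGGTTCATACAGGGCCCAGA
Hoxa10, chr6:52240805-52241104, minus strand: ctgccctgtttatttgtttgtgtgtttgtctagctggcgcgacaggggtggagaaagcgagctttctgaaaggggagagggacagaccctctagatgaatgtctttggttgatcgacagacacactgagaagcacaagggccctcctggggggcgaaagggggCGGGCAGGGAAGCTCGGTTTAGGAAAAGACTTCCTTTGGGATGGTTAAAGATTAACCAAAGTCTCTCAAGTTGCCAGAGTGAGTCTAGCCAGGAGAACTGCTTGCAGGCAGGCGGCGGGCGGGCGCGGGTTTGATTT
Hoxd9, chr2:74697513-74697812, plus strand: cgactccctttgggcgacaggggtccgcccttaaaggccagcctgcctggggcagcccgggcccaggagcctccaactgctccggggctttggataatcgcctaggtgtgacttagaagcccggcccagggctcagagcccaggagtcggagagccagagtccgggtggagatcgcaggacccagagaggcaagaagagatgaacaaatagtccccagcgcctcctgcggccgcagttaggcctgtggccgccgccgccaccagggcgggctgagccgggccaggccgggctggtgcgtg
Hoxd10, chr2:74691641-74691940, plus strand: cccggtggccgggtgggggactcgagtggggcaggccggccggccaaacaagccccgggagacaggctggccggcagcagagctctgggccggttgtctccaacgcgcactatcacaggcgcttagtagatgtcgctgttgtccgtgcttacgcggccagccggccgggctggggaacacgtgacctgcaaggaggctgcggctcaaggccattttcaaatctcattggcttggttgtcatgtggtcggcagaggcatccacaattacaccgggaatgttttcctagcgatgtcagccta
Cre peaks covered 74 bases of the Hoxa9 window and GFP peaks 227, whereas at Hoxa10 Cre peaks covered 137 and GFP peaks 0. The Hoxa9 window holds 4 CG dinucleotides, the Hoxa10 window 12, that of Hoxd9 20 and that of Hoxd10 22. This order does not separate touched from untouched promoters. Of the untouched ones, Hoxd4 holds 4, Hoxd8 6 and the further Hoxa10 promoter 21. The 24 Hox promoters held from 4 to 45 with a median of 14.5, and the median of all 32851 promoters in the table was 7. Both strands of the 24 promoters were searched for 3 motifs, of which the first and second can share bases, since TGATTCA is a match to the second and can begin a match to the first. A HOX-PBX motif, TGATTNAT, was in 2 of them and in 3.22% of all promoters, an AP-1 motif, TGANTCA, in 1 and in 7.81%, and a SOX motif, AACAATNG, in 0 and in 2.50%. None of the 4 promoters printed held any of these letters.

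The marked stretch of the Hoxa cluster ended near its neighbours Hoxa7 and Hoxa11. Hoxa11, which with its paralogs shapes the forearm and lower leg, carried 1 peak inside the gene in each library, of 147 bp with 9 fragments in the Cre library (52244276 to 52244422) and of 163 bp with 9 fragments in the GFP library (52244868 to 52245030). These did not overlap and lay 445 bp apart. Hoxa7, a gene of the trunk, had 2 nearest peaks in each library, all above its upper end, with summits at 1392 and 2076 bp with Cre and at 1823 and 2072 bp with GFP, so its own boundaries were unmarked. Hoxa3, active in the neck and throat region, was called through 1 Cre peak of 147 bp with 11 fragments (52213546 to 52213692), 516 bp beyond the upper end of a gene that spans 44009 bp and with its summit inside the noncoding RNA gene Hoxaas3. This peak lay between Hoxa6 and Hoxa7, and it fell to Hoxa3 because the annotated gene runs past Hoxa4, Hoxa5 and Hoxa6. The nearest GFP peak was 6586 bp away. Hoxa2, Hoxa4, Hoxa5, Hoxa6 and Hoxa13, the last a gene of the digits, received no peak in either library.

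Hoxc10 led the Hoxc cluster, and its marks lay mostly outside the gene. The gene (chromosome 15, 102966796 to 102971898) was nearest to 9 Cre peaks over 3491 bp and 10 GFP peaks over 3517 bp. The strongest lay between Hoxc11 and Hoxc10, on the 5′ side of Hoxc10, in a run where the first 4 Cre peaks (102962218 to 102965076) each overlapped a GFP peak. Their summits held 15, 14, 16 and 16 fragments in the Cre library, against 18, 16, 16 and 12 in the overlapping GFP peaks. These summits lay 2013 to 4302 bp from the gene end with Cre and 2118 to 4273 bp with GFP. Closer to the gene the libraries parted. The GFP list had peaks at 102965409 to 102965727 (15 fragments) and 102965800 to 102966079 (13 fragments) with no Cre peak over them, and the Cre list had peaks at 102967380 to 102967784 (10 fragments) and at the upper gene end, 102971860 to 102972175 (10 fragments), with no GFP peak over them.

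Hoxc9 and Hoxc6 held the rest of the marked Hoxc sequence. Hoxc9, a thoracic gene that also acts in spinal motor neurons, had 2 peaks in each library inside its lower, 5′ part, covering 817 bp with Cre and 364 bp with GFP. Their summits held 13 and 10 fragments with Cre and 11 and 11 with GFP. Hoxc6, expressed in the trunk and at the forelimb level, was marked inside the gene (102998226 to 103011882), by 7 Cre peaks over 1672 bp and 12 GFP peaks over 3542 bp. It showed the widest difference in covered length of any member. The strongest Hoxc6 peak was 665 bp long with 20 fragments and fold 10.8 in the GFP library (102999541 to 103000205), a fold reached by 3.86% of GFP peaks, against 285 bp and 11 fragments in the overlapping Cre peak (102999732 to 103000016). Further along, 5 neighbouring GFP peaks between 103005067 and 103008268, with 8 to 15 fragments, overlapped no Cre peak, although 1 Cre peak of 350 bp (103007363 to 103007712, 10 fragments) lay between them.

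The remaining Hoxc genes had little or nothing. Hoxc5 had 1 GFP peak of 199 bp with 8 fragments (103013158 to 103013356), with the summit 715 bp from the gene, and no Cre peak. Hoxc11 was nearest to 2 GFP peaks with 8 and 10 fragments, whose summits lay 2969 and 4368 bp above its upper end, and to no Cre peak. Hoxc8, which sets the identity of lower thoracic and upper lumbar vertebrae, lay wholly inside a stretch of 19752 bp without a peak in either library, between the marked parts of Hoxc9 and Hoxc6. Hoxc4, Hoxc12 and Hoxc13 received no peak.

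**Figure D3:**
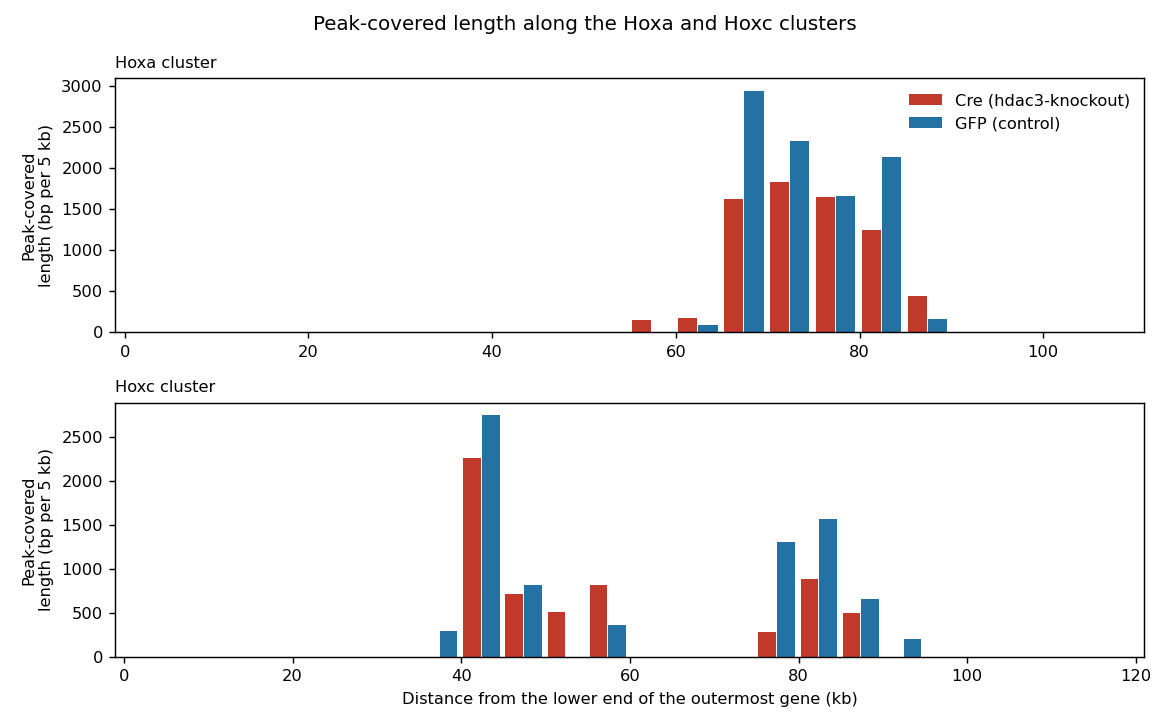
Peak-covered length in bp per 5 kb along the Hoxa and Hoxc clusters, in the Cre library (left bar) and the GFP library (right bar), by distance in kb from the lower end of the outermost gene. The bin over the lower part of Hoxa9 holds 1627 bp with Cre and 2942 bp with GFP, and the bin over the lower part of Hoxc9 holds 817 bp with Cre and 364 bp with GFP.

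Peaks covered less of both marked clusters in the hdac3-knockout library than in the control library. Over the 4 windows they covered 13079 bp with Cre and 17284 bp with GFP, a Cre share of 43.1%, where the whole lists had a Cre share of 50.2%. The Cre share was 43.3% in the Hoxa and 42.9% in the Hoxc cluster. Less covered length with Cre was not particular to Hox genes. Within 10 kb it was also seen at the chondrocyte markers Col2a1, Acan, Col9a1, Col9a2, Col11a2, Matn1, Matn3 and Hapln1. At Col9a1 peaks covered 10955 bp with Cre and 14443 bp with GFP. Sox9, Comp, Cnmd and Epyc went the other way, Comp with 2010 bp with Cre and 1245 bp with GFP. In single libraries of bulk cultures, fewer marked cells, less acetylation per cell and a difference between the libraries themselves cannot be told apart. By number of peaks the Cre share was 43.75%, with an exact 95% binomial interval from 33.6 to 54.3% that covers counting error only and takes in an even split, while the whole lists had 50.5%. The mean peak width was 296 bp with Cre and 345 bp with GFP in the Hoxa cluster, and 332 bp with Cre and 295 bp with GFP in the Hoxc cluster. Among strong peaks the Cre share of covered length was 33.3% for summits of 15 fragments or more (10 Cre and 18 GFP peaks) and 26.8% where the −log10 q-value was 10 or higher (5 Cre and 13 GFP peaks). Over the whole lists the Cre share was 50.7% and 47.3% under these same limits. With no such limit, the Cre share in the Hox windows was 45.4% without the peaks nearest to Hoxc6. It was 43.1% without those nearest to Hoxa10, both settings chosen after seeing the data.

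Most Hox peaks with 15 or more fragments overlapped a peak of any height in the other library. With that limit set on both lists, 70% of the 10 Cre peaks and 38.9% of the 18 GFP peaks did. Of 42 Cre peaks, 28 (66.7%, exact 95% interval 50.5 to 80.4) overlapped a GFP peak by at least 1 bp, and of 54 GFP peaks 28 (51.9%, 37.8 to 65.7) overlapped a Cre peak. Over the whole lists these shares were 40.7% and 41.4%. The intervals count peaks as independent, which neighbours in the same stretch are not. The shares were not adjusted for peak width, whose mean was 311 bp with Cre and 320 bp with GFP at Hox peaks. Over the whole lists it was 249 and 251 bp. All 10 Cre peaks with 15 or more fragments overlapped a GFP peak, and so did 10 of the 21 with up to 11 fragments. Of the GFP peaks, 15 of 18 with 15 or more fragments and 5 of 20 with up to 11 overlapped a Cre peak. Whole-list shares by summit height are not given here, so these counts by height are not a result about the Hox peaks. Of the marked bases, 4549 were in peaks of both libraries in the Hoxa cluster, 2550 in the Cre library alone and 4765 in the GFP library alone, and in the Hoxc cluster these were 2997, 2983 and 4973.

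The 28 overlapping Cre peaks formed 30 pairs with GFP peaks, since a peak can meet several, and the summit was higher in the GFP library in most. The Cre summit was higher in 8 pairs, the GFP summit in 19, and 3 were equal. Over all 5779 overlapping pairs of the lists the Cre summit was higher in 46.7% and the GFP summit in 42.5%. The median summit of the Hox pairs held 13 fragments with Cre and 16 with GFP. The largest gaps were the 2 pairs at Hoxa9 given above and the Hoxc6 pair of 11 and 20. Pairs leaning to the Cre library included 18 and 11 fragments inside Hoxa10 (52232072 to 52232287 and 52232092 to 52232236) and 16 and 11 fragments in Hoxc6. Neighbouring pairs come from the same libraries and share their local acetylation, so they are not independent.

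**Figure D4:**
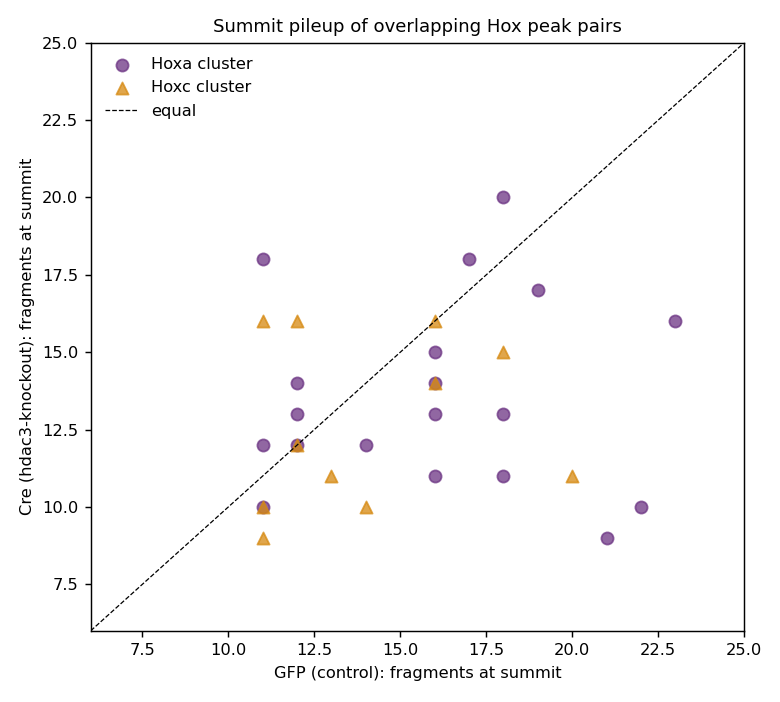
Fragments at the summit of the 30 overlapping peak pairs in the Hox clusters, with the GFP library on the x axis and the Cre library on the y axis; circles are Hoxa pairs, triangles Hoxc pairs, and the dashed line marks equal values. At some positions a Hoxa and a Hoxc pair lie over each other. Of the 30 pairs, 8 lie above the line, 19 below it and 3 on it.

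Set beside the rest of the genome, the Hoxa stretch was among the longest marked in either culture. Peaks within 10 kb of each other were joined into stretches, 5645 in the Cre and 5493 in the GFP list, and ranked within each list by covered length. The Hoxa stretch ranked 21 in the Cre list, with 24 peaks over a span of 30.9 kb, and 11 in the GFP list, with 27 peaks over 24.8 kb. The stretch of Hoxc10 and Hoxc9 ranked 54 in the Cre and 67 in the GFP list, and that of Hoxc6 ranked 328 and 88. In mean fold, single Hox peaks were close to the whole lists, with 6.24 with Cre and 6.77 with GFP, against 6.33 and 6.54. Their mean width was 311 bp with Cre and 320 bp with GFP, against 249 and 251 bp over the whole lists. Summits of 15 fragments or more made up 10 of 42 Hox peaks with Cre, beside 3057 of 13130 in the whole list. With GFP they made up 18 of 54, beside 2783 of 12873. Ranks place a stretch within its own list and do not measure a change between libraries.

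The Hoxb and Hoxd clusters lay in long empty regions. No peak of either library was found over 691 kb around Hoxb, a stretch with 13 protein-coding genes that also holds Calcoco2, Ttll6 and Skap1, or over 1397 kb around Hoxd, with 12 that include Lnpk, Evx2 and Mtx2. Gaps as long as that at Hoxb made up 6.51% of all gaps between neighbouring peaks with Cre and 6.35% with GFP, and gaps as long as that at Hoxd 3.22% and 3.49%. These are shares of the number of gaps. Being long, such gaps hold a larger share of the bases between peaks, so these shares do not make the location rare. Of 100 kb tiles of the genome, 83.9% held no summit with Cre and 84.3% with GFP. The lists hold no summit under 7 fragments, so acetylation of Hoxb1 to Hoxb9, Hoxb13 and the 9 Hoxd genes was not detectable at this depth, which does not show that it is absent.

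The clusters also hold microRNA genes, whose mature sequences are shown because miR-196 genes with the same seed lay in marked and unmarked clusters, while the miR-10 genes lay in the unmarked Hoxb and Hoxd clusters. In the mouse miR-196 acts on Hox transcripts, Hoxb8 among them. The sequences are those of RefSeq (GRCm38.p6), 5′ to 3′, with the seed, bases 2 to 8, in capitals.
miR-196b-5p, Mir196b, chr6:52230129-52230150, minus strand, Hoxa cluster: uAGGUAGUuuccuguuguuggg
miR-196a-5p, Mir196a-2, chr15:102973365-102973386, plus strand, Hoxc cluster: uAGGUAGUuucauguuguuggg
miR-10a-5p, Mir10a, chr11:96317186-96317208, plus strand, Hoxb cluster: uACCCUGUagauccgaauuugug
miR-10b-5p, Mir10b, chr2:74726074-74726096, plus strand, Hoxd cluster: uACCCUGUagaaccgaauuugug
The miR-196 forms share their seed and differ at 1 of 22 positions, and the miR-10 forms share theirs and differ at 1 of 23. Mir196b lay between Hoxa9 and Hoxa10 with a Cre peak 72 bp away (10 fragments) and a GFP peak 70 bp away (11 fragments). Mir196a-2, between Hoxc10 and Hoxc9, had its nearest Cre peak at 438 bp (102973873 to 102974063, 9 fragments) and its nearest GFP peak at 2698 bp. Mir196a-1, which gives the same miR-196a-5p from the Hoxb cluster, was 189551 bp from the nearest Cre peak and 189729 bp from the nearest GFP peak, and Mir10a and Mir10b were farther still. Mir615, in Hoxc5, was 5213 bp from a Cre and 1553 bp from a GFP peak. A mark near a gene does not measure its transcript.

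Long noncoding RNA genes of the clusters were marked where they run through the same stretch. Gm52902 (52227504 to 52232651), which runs from beyond the upper end of Hoxa9 into Hoxa10, met 7 Cre peaks over 2686 bp and 10 GFP peaks over 2997 bp, which are also counted at these Hox genes. Hottip beyond Hoxa13, Hotair between Hoxc12 and Hoxc11 and Haglr beside Hoxd1 had no peak in either library.

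Of 9 genes for the TALE homeodomain partners of Hox proteins, 2 had boundary peaks in both lists, Pknox1 among them, Meis1 had one with GFP alone, and 6 had none. Pknox1 had 15 fragments at its boundary with Cre and 21 with GFP. Of 20 genes known to regulate Hox clusters, Eed, a Polycomb subunit, and Rarg, a retinoic acid receptor, had boundary peaks in both lists, and 15 had none. In the Cre list alone 3 genes had them, among them Kmt2b, a histone methyltransferase, and Rara, a retinoic acid receptor, and no gene of this list had them in the GFP list alone. Boundary peaks in both lists were at 2 of 9 and 2 of 20 genes, beside 9.26% of all protein-coding genes. In the Cre list alone 4.28% of all genes had them, and in the GFP list alone 4.77%. The Kmt2b boundary peak held 8 fragments, near the lowest in the list. Within 10 kb both lists had peaks at these genes, 3 in each at Kmt2b, and 3 with Cre and 2 with GFP at Rara.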

How the data were processed

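H3K27ac was measured by chromatin immunoprecipitation and sequencing in 1 Cre and 1 GFP library. Per the submitters' processing notes, bcl2fastq 1.8.4, BWA, Picard and SICER were used with mm10. The deposited lists, 1 per library, have the column order of MACS2 narrow peaks; its version, settings and control are not stated. The deposited score was the whole part of 10 times the −log10 q-value, and the fold enrichment is the authors' ratio of observed to expected pileup at the summit, with 1 added to each.

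Fold and −log10 p-value, as deposited, were solved for a whole summit pileup (the number of fragments) with a Poisson upper tail; 100% of peaks came out whole within 0.001. The solver and the overlap count were tested on simulated data. Total depth per library is not stated. PCR copies are not independent molecules, so intervals cover counting error only.

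Genes came from a RefSeq table (GRCm38.p6) without strand, so gene starts were replaced by both annotated gene ends, and peaks were given to the nearest gene end. Shares carry exact Clopper-Pearson 95% intervals. All 39 members are counted; of the other lists, at most 6 genes with a boundary peak were named. Some single genes are not reported here. Members and lists were chosen with earlier results of these data known. Python 3.11.15, numpy 2.4.6 and scipy 1.17.1 were used.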

Additional observations from a re-analysis of the deposited data

How the results depend on the processing

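The Cre share of covered length in the 4 windows, 43.1%, stayed between 34.4 and 45.4% under 8 of 10 alternatives and was 33.3% for summits of 15 fragments or more and 26.8% where the −log10 q-value was 10 or higher. Hox genes with a boundary peak, 5 in the Cre and 7 in the GFP list, numbered 4 in the GFP list for a −log10 q-value of 5 or higher. They numbered 2 in the Cre and 2 in the GFP list at 10 or more and with 15 fragments or more, and 3 in each among the top 5000 peaks. With a boundary of 500 bp the GFP count was 2, and with 2500 bp the Cre count was 8. With the gene body included, an alternative chosen after seeing the data like those without Hoxa10 or Hoxc6, each list gave 7. The share of Cre and of GFP peaks that overlapped the other list was 42.9 and 33.3% when the overlap had to reach 50% of both peaks, and 92.9 and 85.2% when a peak within 1 kb counted. For a −log10 q-value of 10 or higher the GFP share was 23.1%, of 13 peaks. The loss of peaks under stricter limits follows from their construction. With gene starts alone, each cluster taking the strand of its 1 to 9 members in the promoter table, a setting also chosen after seeing the data, the counts were 5 with Cre and 7 with GFP. Both gene ends, listed as an alternative, are the setting reported. With summits of 7 fragments or more in the lists, depth limits what can be said of unmarked genes. No paired analysis was possible because each culture gave 1 library and the labels carry no replicate numbers.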

Other observations

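Other genes that pattern the skeleton lacked the mark at their ends. None of 27 such genes, from T-box and paired-type homeodomain genes to the Dlx and Msx families and the Hox neighbours Evx1 and Evx2, had a boundary peak in either list, beside 13.5% of all protein-coding genes with Cre and 14.0% with GFP. Within 10 kb of the gene, 6 had a peak with Cre and 5 with GFP, where 26.0% of all protein-coding genes did in each list. Tbx15, a T-box gene of the shoulder and pelvic girdles, had 20 Cre peaks over 7296 bp and 17 GFP peaks over 6877 bp. Prrx1, a gene of limb mesenchyme, had 13 Cre peaks over 3515 bp and 8 GFP peaks over 2137 bp. Tbx5, the forelimb gene, had 2 Cre and 5 GFP peaks, and Pitx1, the hindlimb gene, had 3 in each list. Shox2, of the proximal limb, had 2 and 3 in the Cre and GFP lists. Nkx3-2, a gene of early cartilage, had 2 Cre peaks and no GFP peak.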
